A study of Rattus norvegicus with 2 samples.

Results

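Membrane carriers of 9 solute carrier families (families 1, 2, 3, 5, 6, 7, 16, 36 and 38) were examined in fetal rat skin at day 16.5, labelled E16, and day 18.5, labelled E19. The members were all array gene names with one of these family prefixes (Slc1a, Slc2a, Slc3a, Slc5a, Slc6a, Slc7a, Slc16a, Slc36a or Slc38a) and a number, 79 of the 12505 gene symbols on the array. The name rule used no measured value, but the members, the roles and the gene lists were chosen with earlier results of these data known. Sugars, amino acids and monocarboxylates are the usual cargo, but the families also hold carriers of neurotransmitters, iodide, choline, vitamins, myo-inositol, taurine, creatine and thyroid hormone, and these were kept. Skin came from untreated Sprague Dawley fetuses at both stages, and total RNA of 4 E16 samples and of 3 E19 samples was each combined into 1 pool. The 2 pools were hybridised together on 2 Agilent arrays, with E19 in Cy5 on array 1 and E19 in Cy3 on array 2. Both arrays hold the same 2 pools and count as 1 replicate per stage, so no difference between stages could be tested, and every SD below is technical spread between the 2 arrays.

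Carriers move small water-soluble solutes across the plasma membrane or organelle membranes. Family 2 (GLUT) carriers let sugars run down their gradient, whereas families 1, 5, 6 and 38 are mostly driven by the sodium gradient that the sodium pump maintains, and families 16 and 36 mostly move solutes together with protons. Families 3 and 7 join as heavy and light chains to exchange amino acids. Which carriers a tissue expresses depends on its cell types: GLUT4 is typical of fat and muscle, neurotransmitter carriers of neurons and glia, and GLUT1 of most growing tissues, epidermis included.

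Family 5 was the only one with carriers past the 2-fold rule, given below, on both sides of the comparison. Transcripts of the iodide carrier Slc5a5 and the glucose carrier Slc5a1 were higher in E19, and that of the choline carrier Slc5a7 was higher in E16. Their promoters are shown so that the start regions of family members with opposite ratios can be set side by side. The sequences are from RefSeq on the GRCr8 build, 250 bases upstream of the annotated start, 5′ to 3′ on the gene's strand. Slc5a5 lies at chr16:18580455-18580704 on the plus strand, Slc5a1 at chr14:81843085-81843334 on the minus strand and Slc5a7 at chr9:7953510-7953759 on the minus strand. Capitals mark the GC box (GGGCGG), the E-box (CACGTG) and the TATA box (TATAAA), searched on both strands.
Slc5a5: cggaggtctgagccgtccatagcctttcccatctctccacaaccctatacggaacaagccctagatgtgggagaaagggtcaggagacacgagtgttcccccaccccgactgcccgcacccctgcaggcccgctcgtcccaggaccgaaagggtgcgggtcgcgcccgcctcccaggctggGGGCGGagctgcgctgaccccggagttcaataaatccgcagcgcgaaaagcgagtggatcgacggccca
Slc5a1: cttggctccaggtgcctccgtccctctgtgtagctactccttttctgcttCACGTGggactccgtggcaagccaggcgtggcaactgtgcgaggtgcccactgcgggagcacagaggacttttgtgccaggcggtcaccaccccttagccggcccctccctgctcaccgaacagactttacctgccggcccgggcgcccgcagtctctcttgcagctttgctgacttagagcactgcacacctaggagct
Slc5a7: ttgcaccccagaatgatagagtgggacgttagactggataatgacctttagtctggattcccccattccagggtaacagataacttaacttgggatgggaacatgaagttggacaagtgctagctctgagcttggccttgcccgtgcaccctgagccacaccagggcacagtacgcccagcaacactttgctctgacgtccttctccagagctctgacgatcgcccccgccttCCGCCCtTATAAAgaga
The Slc5a5 window held a GC box whose first base lay 69 bases before the start. The Slc5a1 window held an E-box at 200 bases and no GC box. The Slc5a7 window held a GC box at 17 bases and a TATA box at 10 bases, which did not overlap. GC boxes occurred in 32.4% of the 27457 rat promoter windows of this length, E-boxes in 5.79% and TATA boxes in 13.1%. A window was given for 51 of the 66 detected carriers, and of these 22 held a GC box, 7 an E-box and 5 a TATA box. The AP-1 site (TGANTCA; 6.36% of all windows) was found in 9 of the 51, and the CCAAT box (CCAAT; 34.3% of all windows) in 16. The median GC content was 57.2% in the carriers' windows and 52.0% in all windows. Among the 8 windows of carriers that differed between the pools by the size rule below, no motif was held by more than 3. These matches describe letters only.

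Of the 79 carriers, 66 were detected, that is, well above background for at least 1 pool on both arrays, and 55 were well above background in both pools on both arrays. The size rule asked that array 1 and array 2 each showed a difference of 2-fold or more towards the same stage. By this rule 5 carriers were higher in E19 (7.58% of 66), where the share among all 10246 detected gene symbols was 4.57%. In the other direction 8 carriers were higher in E16 (12.1%), against 4.05% of all symbols. Taken in either direction, 13 carriers were called (19.7%, against 8.62%), and 0 reached 2-fold towards the same dye with each dye orientation. The 5 higher in E19 were Slc5a5, Slc36a2, Slc2a4, Slc5a1 and Slc5a11, and those higher in E16 included Slc6a5, Slc7a3, Slc16a11, Slc5a7, Slc6a13, Slc1a6 and Slc38a5.

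The carriers as a whole were not shifted to one stage relative to other genes. The median log2 ratio of E19 over E16 was 0.02 (quartiles -0.44 and 0.38), and over all detected symbols it was 0.02 (quartiles -0.23 and 0.29). Ratios lay above 0 for 35 carriers and below 0 for 31. The spread was wider than for all symbols: the median absolute log2 ratio was 0.40 in carriers and 0.26 in all symbols, and 59.1% of carriers against 72.5% of symbols lay within 0.5 of 0. The 2 arrays gave the same sign for 54 of the 66 carriers, and the median SD between arrays was 0.11 in carriers and in all symbols. Against the 10 spike-in RNAs, whose mean ratio was 0.22 (SD 0.037 over spike-ins), every log2 ratio would be lower by 0.22, so carriers between 0 and 0.22 would change sign. With Feature Extraction's processed signals, and in the authors' deposited table, 10 carriers rather than 5 passed towards E19, the added ones being Slc16a7, Slc36a1, Slc5a10, Slc6a14 and Slc7a11. Under the same settings 12 rather than 8 passed towards E16, the added ones being Slc1a2, Slc2a3, Slc6a15 and Slc7a9.

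**Figure D1:**
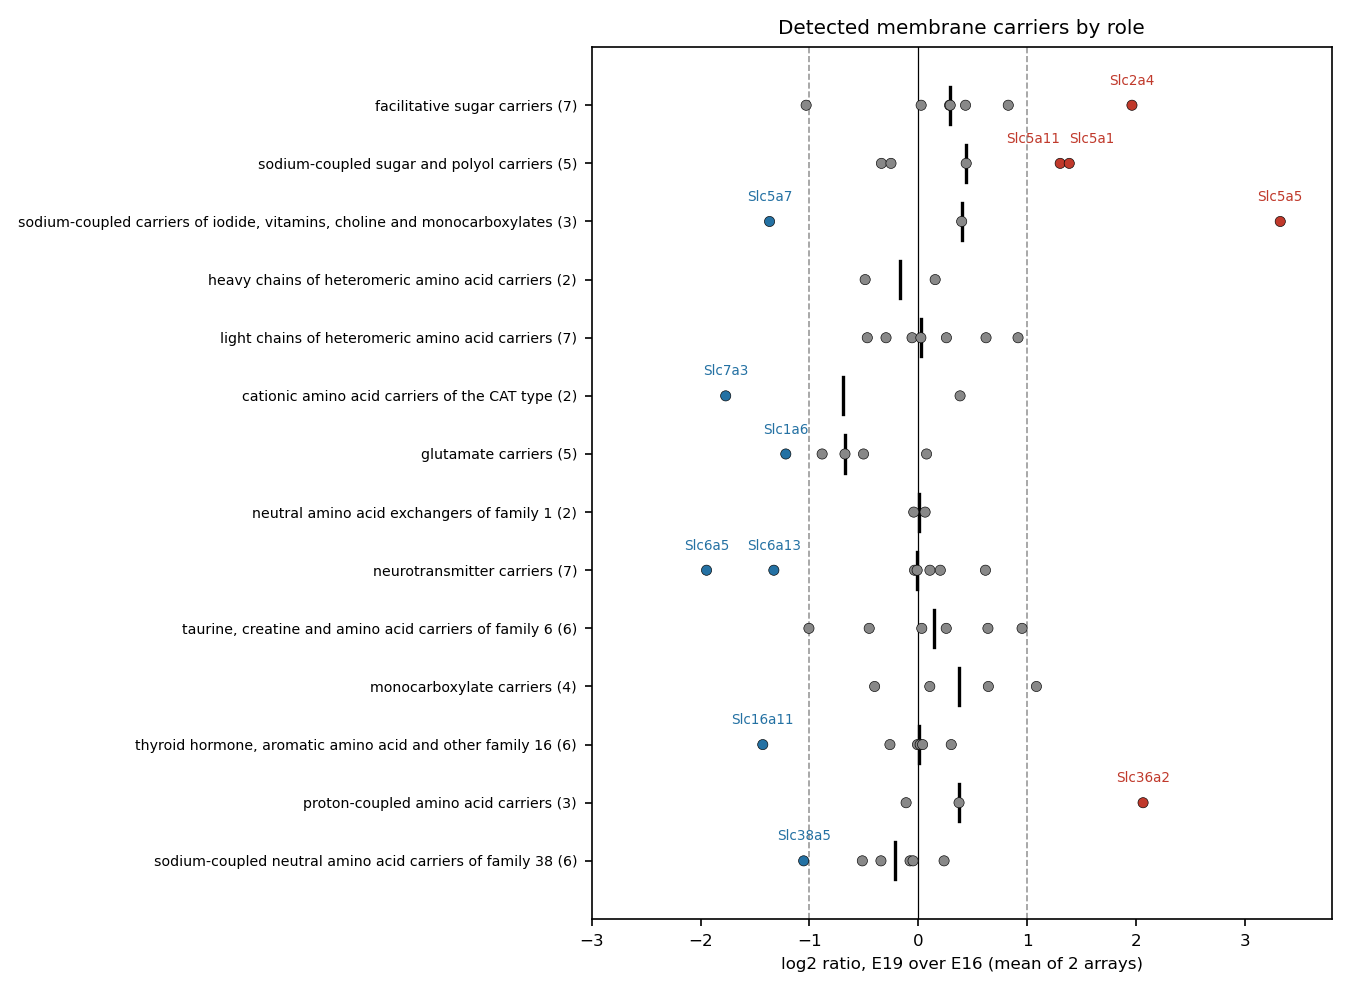
Mean log2 ratio of E19 over E16 (x axis) for 65 of the 66 detected carriers, in rows by role. Each row label gives how many carriers are drawn, each point is 1 carrier, black bars are medians of the points drawn, dashed lines mark 2-fold, red marks carriers past the size rule towards E19 and blue those past it towards E16. Most points lie between the dashed lines, with 5 named carriers on the E19 side and 7 on the E16 side.

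**Figure D2:**
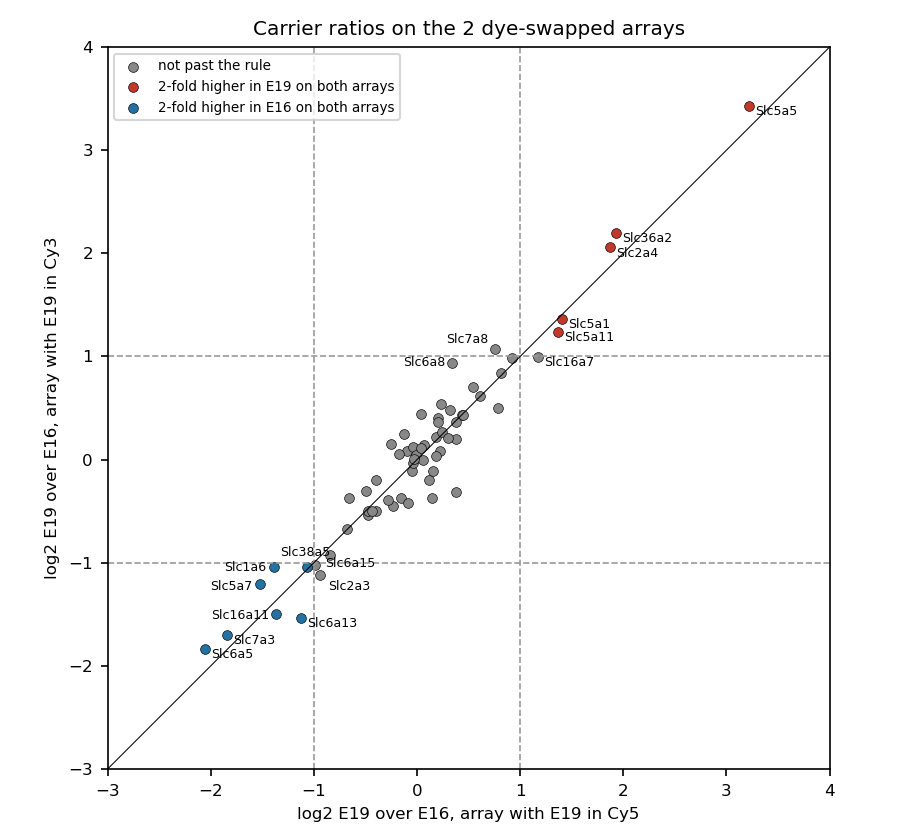
Log2 ratio of E19 over E16 on array 1, with E19 in Cy5 (x axis), against the same ratio on array 2, with E19 in Cy3 (y axis), for 65 of the 66 detected carriers. Points near the diagonal have like ratios under both dye orientations; the 12 coloured carriers are past the dashed 2-fold lines on both axes, and Slc16a7, Slc2a3 and Slc6a15 sit at the edge of the rule.

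Levels below are normalised intensities, given for array 1 and then array 2. They compare the pools for 1 probe and are not compared between probes. For carriers past the size rule, levels without overlap largely follow from that rule and add no further evidence. In pooled tissue, fewer cells of a type and less RNA per cell cannot be told apart. Counts per role stand beside the shares among all detected symbols, 4.57% towards E19 and 4.05% towards E16.

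Facilitative sugar carriers (family 2) had 7 of 9 members detected, with 1 called higher in E19, 0 in E16 and a median of 0.29. Slc2a4 encodes GLUT4, the carrier that insulin brings to the surface of fat and muscle cells. Its level was 2025 and 2145 in E19 and 555 and 516 in E16, so both E19 values lay above both E16 values. The difference was 3.90-fold (log2 1.96 ± 0.13, SD of 2 arrays) for the brightest probe. A second, dimmer probe gave 0.30 ± 0.01, and the mean of both probes was 1.13. Slc2a1 encodes GLUT1, the general glucose carrier. It read 51074 and 51059 in E19 and 37717 and 37901 in E16, a small difference (0.43 ± 0.01) without overlap. Slc2a5, the fructose carrier GLUT5, had levels of 940 and 896 in E19 and 535 and 501 in E16 (0.83 ± 0.02), under the 2-fold rule. Slc2a3, the high-affinity glucose carrier GLUT3 known from neurons and placenta, went the other way, with 206 and 197 in E19 and 396 and 427 in E16. Its ratio was -0.94 on array 1 and -1.12 on array 2, so it missed the rule on 1 array. Slc2a6 (0.29), Slc2a8 (0.29) and Slc2a10 (0.03) differed little. Slc2a2, the glucose carrier GLUT2 of liver and beta cells, and Slc2a12 were not well above background in either pool on either array.

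Among sodium-coupled sugar and polyol carriers, 5 of 8 were detected, 2 were called higher in E19 and the median was 0.44. Slc5a1 encodes SGLT1, the sodium-glucose carrier of the intestinal brush border. Its level was 332 and 288 in E19 and 125 and 112 in E16, with no overlap, a 2.61-fold difference (1.39 ± 0.03, and 2.70 with processed signals). Slc5a11 encodes SMIT2, a myo-inositol carrier. It read 1086 and 1060 in E19 and 421 and 449 in E16, again without overlap, a 2.47-fold difference (1.30 ± 0.09), and with median centring in place of loess it no longer passed the rule. Slc5a10 was well above background in E19 only (139 and 124, against 102 and 91.9 in E16), which gives a difference of at least 1.36-fold. Such a bound, here and below, divides the brighter pool's mean by the dim pool's own reading or, where that is lower, by the lowest reading that counted as well above background. It refers to the mean of both arrays and leaves out their spread, so a single array or another setting can lie below it. Slc5a3, the other myo-inositol carrier, had a ratio of -0.25 ± 0.24, and Slc5a2, the renal glucose carrier SGLT2, -0.34 ± 0.08.

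The remaining family 5 members carry other solutes, and all 3 were detected. Slc5a5 encodes the sodium iodide symporter, through which the thyroid takes up iodide. It had the largest ratio of all carriers: 9359 and 11067 in E19 and 1004 and 1028 in E16, a 10.02-fold difference (3.32 ± 0.15). Slc5a7 encodes the choline carrier by which cholinergic neurons recover choline. Its level was 198 and 221 in E16, while the E19 pool, at 69.0 and 95.7, was not well above background on either array. The difference was at least 2.39-fold towards E16 (measured log2 ratio -1.37 ± 0.22, and -4.45 with processed signals). Slc5a6, the carrier of biotin and pantothenate, read 9046 and 9648 in E19 and 7260 and 6921 in E16 (0.40 ± 0.11).

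Heteromeric amino acid carriers pair a heavy chain of family 3 with a light chain of family 7, and 0 of the 9 detected chains passed the rule in either direction. The heavy chain gene Slc3a2 (CD98) read 11408 and 10738 in E19 and 9755 and 10131 in E16 (0.15 ± 0.10), and centred on spike-ins its ratio was -0.06. Slc3a1, the heavy chain of the renal cystine carrier, had a ratio of -0.49 ± 0.01. The light chain with the largest ratio was Slc7a8 (LAT2), which exchanges neutral amino acids. Its level was 2114 and 2413 in E19 and 1249 and 1147 in E16 (0.92 ± 0.22), 2-fold on array 2 but not on array 1. Slc7a11, the cystine-glutamate exchanger that supplies cysteine for glutathione, was well above background in E19 only (159 and 131, against 109 and 80.6), a difference of at least 1.54-fold (log2 0.62, and 2.01 with processed signals). Slc7a5 (LAT1), which brings in large neutral amino acids such as leucine, was near 0 (-0.06 ± 0.16). Slc7a10, the small neutral amino acid carrier ASC-1 also known as a surface protein of white fat cells, read 3637 and 3931 in E19 and 4788 and 4504 in E16 (-0.30 ± 0.14). The other light chains, Slc7a6, Slc7a7 and Slc7a9, lay between -0.47 and 0.26. Of the 4 members of the CAT type, which carry arginine and lysine without a heavy chain, 2 were detected. Slc7a3 encodes CAT3, known from brain. It read 336 and 383 in E19 and 1203 and 1244 in E16, with no overlap, a 3.41-fold difference towards E16 (-1.77 ± 0.10). Slc7a1, the widely expressed CAT1, had a ratio of 0.38 ± 0.21.

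Glutamate carriers of family 1 were all detected, and 4 of the 5 had ratios below 0, with a median of -0.67 and 1 call. Slc1a6 encodes EAAT4, known from cerebellar Purkinje cells. It was well above background in E16 only (233 and 229, against 88.9 and 111), at least 2.33-fold towards E16 (-1.22 ± 0.24). With median centring it no longer passed the rule, and with processed signals the ratio was -3.35. Slc1a3, the glial carrier GLAST, read 11049 and 9952 in E19 and 19831 and 18870 in E16. This was a 1.84-fold difference without overlap (-0.88 ± 0.06), under the rule. Slc1a2, the astrocyte carrier GLT-1, was above background in E16 only (159 and 165, against 99.5 and 104), at least 1.595-fold (log2 -0.67, and -1.73 with processed signals). That rests on 1 probe. A second Slc1a2 probe was not well above background in either pool (75.2 and 73.3 in E19, 76.3 and 73.0 in E16). Slc1a1 had a ratio of -0.50 ± 0.05 and Slc1a7 0.08 ± 0.05, which centring on spike-ins turns below 0. The neutral amino acid exchangers of the same family differed little: Slc1a5 (ASCT2), a main entry route for glutamine, read 18697 and 15836 in E19 and 17241 and 18200 in E16 (-0.04 ± 0.22), and these values overlapped. Slc1a4 (ASCT1) had a ratio of 0.06 ± 0.27.

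Neurotransmitter carriers of family 6, which clear transmitters from synapses, held 0 carriers called higher in E19. Of those described here, Slc6a5 and Slc6a13 were called higher in E16. Slc6a5 encodes GlyT2, the glycine carrier of inhibitory neurons. It read 288 and 319 in E16 and 69.4 and 89.2 in E19, which was not well above background on either array. This gave a difference of at least 3.58-fold (measured log2 ratio -1.95 ± 0.15, and -5.28 with processed signals). Slc6a13 encodes GAT2, a GABA and taurine carrier also found outside neurons. Its level was 707 and 756 in E16 and 325 and 261 in E19, 2.51-fold (-1.33 ± 0.29), and with median centring the call was lost. The other members described here did not pass the rule. Slc6a4, the serotonin carrier, lay towards E19, with 759 and 790 against 496 and 515 in E16 (0.62 ± 0.0017, and 0.57 ± 0.07 for a second probe). Slc6a9 (GlyT1), Slc6a11 (GAT3), Slc6a12 and Slc6a2, the noradrenaline carrier, lay between -0.03 and 0.20, and the dopamine carrier Slc6a3 was not detected.

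The other family 6 members had 6 of 7 detected and 0 called. Slc6a14, a broad amino acid carrier of epithelia, came closest towards E19, with 355 and 327 in E19 and 188 and 165 in E16 (0.95 ± 0.05). Slc6a15, a neutral amino acid carrier of neurons, came closest towards E16. It was above background in E16 only, at 174 and 203 against 87.7 and 100.3 in E19. The difference of at least 2.01-fold is thus a bound for the mean only. The measured ratios were -0.99 and -1.02, under the rule on array 1. With processed signals its ratio was -3.12. Slc6a8, the creatine carrier, read 23952 and 33214 in E19 and 18918 and 17329 in E16, and its arrays differed (0.34 and 0.94). Slc6a6, the taurine carrier, had the widest disagreement between arrays of all detected carriers (0.38 and -0.31). Slc6a17, a vesicle carrier of neurons, had a ratio of -0.45 ± 0.07. Slc6a18 was above background in E19 only, a difference of at least 1.19-fold.

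Of the monocarboxylate carriers, which move lactate, pyruvate and ketone bodies with protons, all 4 were detected and 0 passed the rule. Slc16a7 (MCT2), a high-affinity member, was at its edge. Its level was 709 and 621 in E19 and 314 and 311 in E16, 2.12-fold in the mean (1.08 ± 0.13), with a ratio just under 1 on array 2. Slc16a1 (MCT1), the widely expressed member, read 6050 and 5334 in E19 and 3503 and 3775 in E16 (0.64 ± 0.20). Slc16a3 (MCT4), which exports lactate from glycolytic cells, went the other way, at 30125 and 28458 in E19 and 42534 and 35158 in E16 (-0.40 ± 0.14). Slc16a8 (MCT3) had a ratio of 0.11 ± 0.05, which centring on spike-ins turns below 0. Ratios of these carriers lay on both sides of 0, without a call. Among the other family 16 members, 6 of 8 were detected and 1 was called. Slc16a11 (MCT11), a less well characterised member, read 3640 and 3271 in E16 and 1413 and 1163 in E19, a 2.69-fold difference (-1.43 ± 0.09) without overlap. Slc16a4, Slc16a6, Slc16a10, Slc16a12 and Slc16a13 lay between -0.26 and 0.30, under the rule.

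Proton-coupled amino acid carriers had 3 of 4 detected and 1 called. Slc36a2 encodes PAT2, a carrier of glycine, proline and alanine that is known as a surface protein of brown and beige fat cells. Its level was 1449 and 1458 in E19 and 381 and 317 in E16, with no overlap, a 4.18-fold difference (2.06 ± 0.19). Slc36a1 (PAT1), found on lysosomes, had a ratio of 0.37 ± 0.01, and Slc36a4 had -0.11 ± 0.36. The sodium-coupled neutral amino acid carriers of family 38 were all detected, with a median of -0.21 and 5 of 6 ratios below 0. Slc38a5, a glutamine carrier that works in both directions, read 585 and 537 in E16 and 279 and 261 in E19. It was the call nearest to the limit, 2.07-fold (-1.05 ± 0.02), and was lost with median centring. Slc38a2 (SNAT2), induced when amino acids are scarce, lay towards E19 (0.24 ± 0.28), with arrays at 0.04 and 0.44. Slc38a1, Slc38a3, Slc38a4 and Slc38a6 lay between -0.51 and -0.05.

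**Figure D3:**
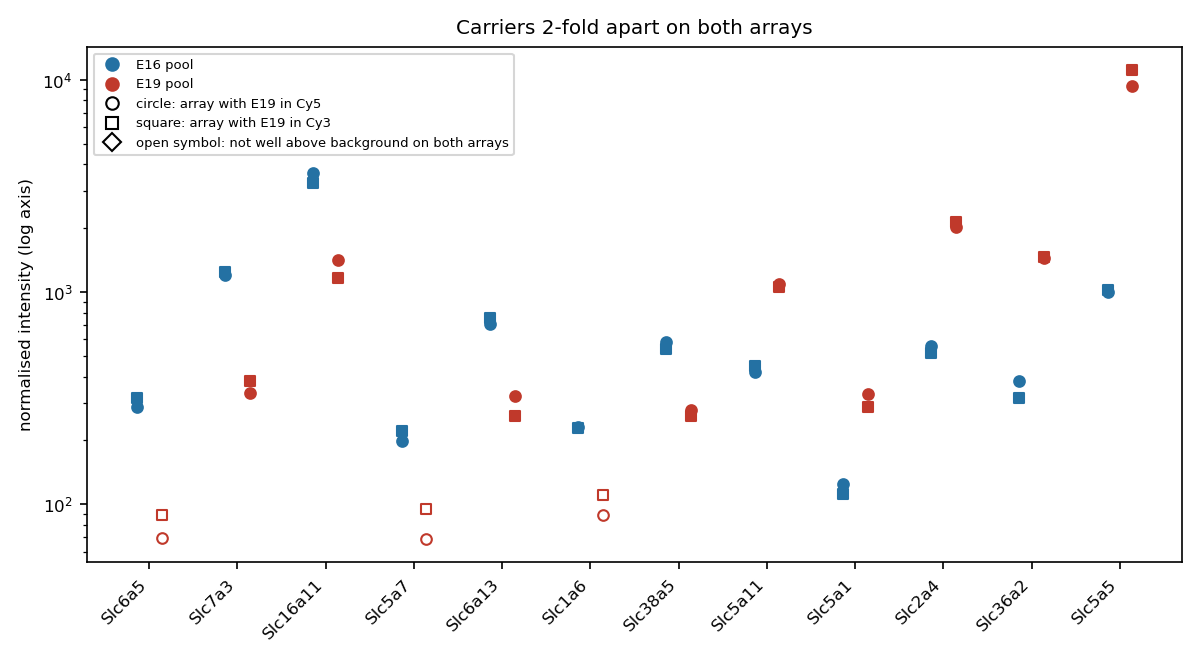
Normalised intensity (y axis, log scale) of 12 of the 13 carriers past the size rule, ordered by ratio from E16-high on the left to E19-high on the right. Blue is the E16 pool and red the E19 pool, circles are array 1 and squares array 2, and open symbols are not well above background on either array. Within each carrier the 2 arrays of a pool lie close together. The pools do not overlap, which largely follows from the size rule that chose these carriers. The 3 carriers with open E19 symbols (Slc6a5, Slc5a7, Slc1a6) have only a bound.

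Several probes were present for 15 carriers, and 12 of them had more than 1 detected. Their ratios differed by a median of 0.27 on the log2 scale, and 0 carriers had probes called in opposite directions. In 3 carriers some but not all probes passed the rule. The dimmer Slc2a4 probe read 268 and 252 in E19 and 219 and 204 in E16, a log2 ratio of 0.30 against 1.96 for the brightest probe. The brightest Slc2a4 probe was printed in 10 copies, of which 7 were kept on array 1 and 6 on array 2, with an SD over spots of 0.09 and 0.03. For Slc6a8 the dimmer probe passed the rule towards E19 (1.23 ± 0.16) where the brightest did not (0.64 ± 0.42). For Slc5a11 the dimmer probe had a ratio of 0.98 ± 0.02, just under the rule. A second probe for Slc5a2 gave -0.94 ± 0.03, against -0.34 for the brightest.

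**Figure D4:**
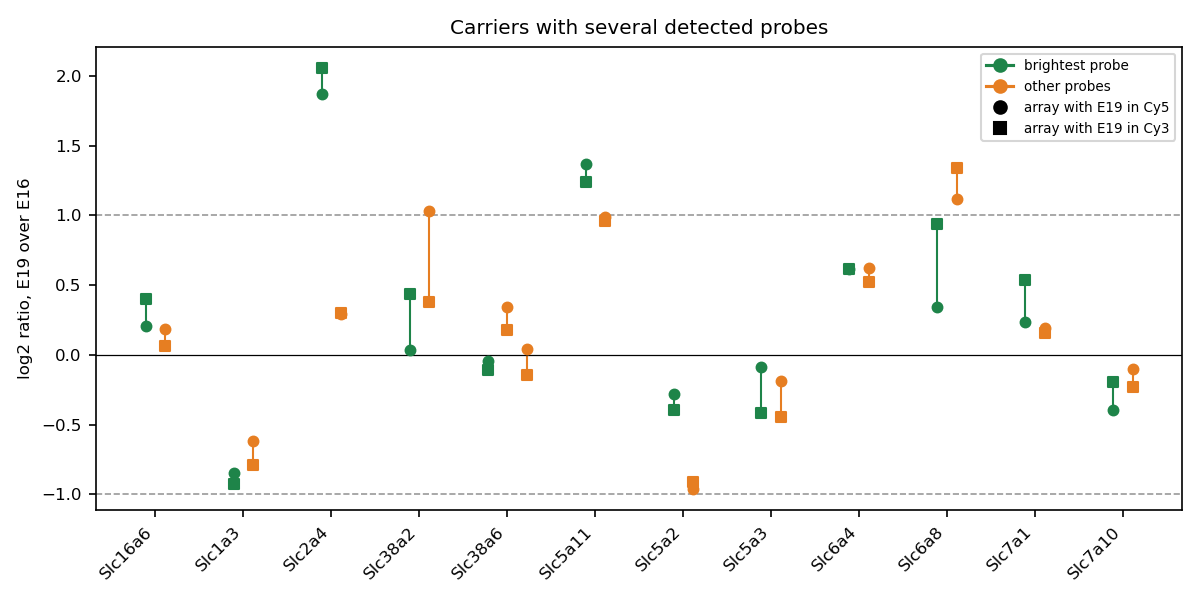
Log2 ratio of E19 over E16 (y axis) for each detected probe of the 12 carriers with several detected probes. Green is the brightest probe and orange the others, circles are array 1 (E19 in Cy5) and squares array 2 (E19 in Cy3), lines join the 2 arrays and dashed lines mark 2-fold. The probes of Slc2a4 lie furthest apart, at 1.96 and 0.30.

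Genes that work with the carriers were read from 8 lists. Among all detected symbols 8.62% were called in either direction, so a short list with 0 called lies near that share. Chaperones of monocarboxylate carriers and lactate dehydrogenases had 0 of 6 called. The main chaperone gene, basigin (Bsg), had a ratio of 0.11 ± 0.05, which centring on spike-ins turns below 0. Sugar phosphorylation and the polyol pathway had 0 of 10 called. Their Txnip, a glucose-induced gene that restrains glucose uptake, had ratios of 1.24 on array 1 and 0.77 on array 2, so it missed the rule on array 2. Insulin signal and GLUT4 traffic genes, which work on the Slc2a4 product, had 0 of 10 called (median 0.01, from -0.16 to 0.50). Amino acid stress response genes had 0 of 15 called (median 0.02), and amino acid sensing by mTORC1 had 0 of 12 (median 0.10). Of the 6 sodium pump subunits only the glial beta subunit gene Atp1b2 was called, higher in E16 at 4159 and 4158 against 1592 and 1670 in E19 (-1.35 ± 0.05). Glutathione and oxidative response genes had 1 of 8 called, the quinone reductase Nqo1, higher in E19 at 778 and 776 against 301 and 308 (1.35 ± 0.03). Creatine and taurine synthesis and creatine kinases had 3 of 8 called, all higher in E19. These were Ckmt2 (2.36 ± 0.15) and Ckmt1 (1.43 ± 0.04), the mitochondrial creatine kinases, and the muscle form Ckm (1.17 ± 0.06).

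Markers of the cell types in the skin samples moved as well. For comparison, 4.57% of all detected symbols were called higher in E19 and 4.05% higher in E16. Keratinocyte markers such as Krt5 and Krt14 were well above background in both pools, as the tissue label asks, and so were neuronal, cartilage, muscle, erythroid and liver markers. Beside Slc2a4 and Slc36a2, 8 of 9 detected adipocyte markers were higher in E19 (median 2.18, Lep not detected in either pool). Their summed intensity was 88425 and 87779 in E19 and 11436 and 12863 in E16. Slc7a10, the carrier also known from white fat cells, lay towards E16 instead (-0.30 ± 0.14). Of 3 detected brown adipocyte markers 2 were higher in E19 (Ucp1 and Cidea), with sums of 45620 and 47908 against 5458 and 7078. The third, Dio2, lay towards E16 (-0.46 ± 0.14), at 2361 and 2218 in E16 and 1599 and 1730 in E19. Elovl3 and Ppargc1a were not detected. Skeletal muscle markers, which also bear on Slc2a4, were 2 higher in E19 and 2 higher in E16 of 8, with a median of 0.21 and sums of 281580 and 195340 against 376730 and 373840. Without the embryonic myosin Myh3 the sums were 134335 and 139222 in E19 and 136794 and 135236 in E16. Suprabasal epidermal markers were higher in E19 in 7 of 8, with sums of 826940 and 985940 against 143820 and 458640. The arrays disagreed for Krt1 (36991 and 197230 in E16, ratios 2.89 and 0.69) and Krt10 (52595 and 175910 in E16, ratios 2.60 and 1.13), which weigh heavily in these sums. Basal keratinocyte markers were higher in E19 in 2 of 7 detected, with Col17a1 not detected. Beside Slc6a5, Slc5a7 and Slc7a3, 8 of 10 neuronal markers were higher in E16 (median -3.01). Their sums were 63783 and 63659 in E16 and 11574 and 11847 in E19, and Syt1 was not well above background in E19. The neurotransmitter carriers Slc6a4 (0.62), Slc6a12 (0.20), Slc6a9 (0.11), Slc6a2 (-0.01) and Slc6a11 (-0.03) were not called. The probes of Slc6a2 (132 and 136 in E19, 135 and 136 in E16) and Slc6a11 (129 and 128 in E19, 132 and 131 in E16) were dim. Beside Slc1a3 and Slc1a2, 2 of 8 glial markers were higher in E16 (Fabp7 and Gfap, median -0.64), while Erbb3 lay towards E19 (0.53 ± 0.01). The glial sums were 23443 and 22576 in E16 against 4285 and 4495 in E19. Without Fabp7 these were 5593 and 5670 in E16 and 3578 and 3994 in E19. Cartilage markers were higher in E16 in 6 of 8, with sums of 36791 and 34820 against 10836 and 9751, and Matn3 was not well above background in E19. Erythroid markers, beside Slc2a1 and Slc38a5, had 1 of 6 called (Hbe1, towards E16), with sums of 674170 and 349290 in E16 and 192540 and 91742 in E19. Without Hbe1, an embryonic globin, the sums were 63781 and 62986 in E16 and 66064 and 78238 in E19, and the list median was -0.13. Leukocyte markers were higher in E19 in 4 of 7, liver markers in 6 of 7 (Ttr was higher in E16), and endothelial markers in 0 of 7. The part of these cell types in the carrier ratios was not tested.

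The 13 carriers not detected included Slc2a2, Slc2a12, Slc5a4a, Slc5a4b, Slc5a9, Slc6a3, Slc6a7, Slc7a2, Slc7a4, Slc7a13, Slc16a14 and Slc36a3. In 11 of the 13 neither pool was above background on any array, and their ratios, from -0.06 to 0.21, carry no order.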

How the data were processed

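Members, roles and gene lists were chosen with earlier results of these data known. Per the file headers, Agilent Feature Extraction 9.5.1.1 read the spot intensity in each channel, and the authors deposited uncorrected mean and local background intensities beside processed ones. A further table of the authors holds a log10 ratio from both arrays together. How it was combined is not stated in these sources, and it was read as E19 over E16, since it correlated at 0.90 and 0.89 across sequences with the arrays turned that way.

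Background was corrected with normexp (offset 50), followed by loess within arrays with control spots at weight 0 (limma 3.58.1, R 4.3.3). Non-uniform and outlier spots (192 and 318 per array) were left out. Spots were averaged per probe, the brightest detected probe stood for a gene, and the 2 arrays were averaged. Levels are per channel after Aquantile normalisation. Between 71.5% and 74.3% of spots per channel were well above background, and the number of arrays limits the precision. Named carriers were those past the size rule, 2-fold in the mean only, or measured in 1 pool, and the brightest and largest of each role; others were chosen after their values were seen. Some carriers are counted but not reported here. Steps were run on simulated data with changes planted only in probes of medium brightness, which does not cover dim probes. Alternatives covered background correction, scaling, detection, probes, spots, single arrays, the authors' table and the size limit. All 79 names matched RefSeq (Slc5a4a is Slc5a4 there). Tables were made with Python 3.11.15.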

Additional observations from a re-analysis of the deposited data

Results flagged for a closer look

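Outside the name rule, 13 further symbols of these families stood on the array under placeholder or older names, and 9 of them were detected, which the comparisons above do not use. Of the 9, 0 passed the 2-fold rule. Slc38a10, a family 38 member, had the largest ratio, 0.51 ± 0.14 on 1 probe and 0.57 ± 0.12 on the other. Slc38a9, the lysosomal arginine sensor, had 0.46 ± 0.03, Slc7a3l1 0.36 ± 0.13 and Slc6a20a, a carrier of proline, 0.35 ± 0.15. Slc7a12 (0.12), Slc38a7 (0.11), Slc6a21 (0.04), Slc38a8 (-0.08) and Slc6a16 (-0.15) lay closer to 0, and the first 3 of these would be below 0 if centred on spike-ins.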

How the results depend on the processing

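Values of 31 carriers were recomputed under 13 settings: 300 values stayed within the array spread and 97 moved beyond it. Many of the 300 could not move, since a value from a single array lies within that spread by construction. Settings that left a carrier's probe and spots unchanged returned its main value. The 300 is therefore no measure of stability. Of the called carriers 0 changed sign, and 3 carriers near 0 that were not called did: Slc3a2 (-0.06 centred on spike-ins), Slc1a5 (0.12 on array 1 alone) and Slc7a5 (0.06 on array 2 alone). The count higher in E19 was 5, and became 10 with Feature Extraction's processed signals, 10 in the authors' deposited table, 10 at 1.5-fold and 3 at 3-fold. It was 6 on each array alone. The count higher in E16 was 8, and became 5 with median centring, 5 when both pools had to be well above background on both arrays (Slc1a6, Slc5a7 and Slc6a5 dropped out by construction) and 3 at 3-fold. It became 12 with processed signals, 12 at 1.5-fold, 12 in the authors' deposited table, 11 with normexp at offset 0 and 11 centred on spike-ins. On single arrays it was 8 to 10. The median log2 ratio of 0.02 was 0.14 with processed signals, 0.13 in the authors' table, 0.0589 with median centring, -0.19 centred on spike-ins, and 0.0390 to 0.05001 on single arrays. Of the 13 called carriers 5 moved by over 1.5-fold: with processed signals Slc6a5 was at -5.28, Slc5a7 at -4.45, Slc1a6 at -3.35 and Slc5a1 at 2.70, and averaged over probes Slc2a4 was at 1.13. The cause of these changes was not tested, except where the setting itself removes genes. Of the 13 called carriers, 13 were at least 2-fold in the same direction in the authors' deposited table. That table comes from the same 2 arrays, and its direction was set by its correlation with them, so this is not independent evidence. No paired analysis was possible because each stage is 1 pool on 2 dye-swapped arrays.

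Dim probes limit the sizes: 8 carriers were measured in 1 pool only and have bounds, and 13 of 79 were not detected. Animal to animal variation was not measured.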
